A study of Chrysanthemum x morifolium with 6 samples.

Results

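ABA-responsive bZIP factors of the ABF and ABI5 type were followed in chrysanthemum roots under salt. A member is a sequence cluster that the authors placed in the bZIP family and whose best Swiss-Prot match is ABSCISIC ACID-INSENSITIVE 5, one of its numbered "like" proteins, or the rice factor TRAB1. The rule found 9 clusters among the 10744 of the deposited regulator table and the 432 of its bZIP family. Grouped by gene name, 3 were matched to ABF1, 4 to ABF2 and 2 to DPBF3 of Arabidopsis, and 0 to TRAB1. The names are those of best matches and do not establish orthology.

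Abscisic acid (ABA) is the plant hormone of water shortage. When receptors bind it, they block protein phosphatases of the 2C type, which frees SnRK2 kinases to phosphorylate bZIP factors of this group. The activated factors bind ABA-responsive elements in promoters and switch on genes of water-stress tolerance. In Arabidopsis, ABF1 and ABF2 (also AREB1) act mainly in vegetative tissue and ABF2 transcripts are known to be induced by ABA and high salt, while DPBF3 (also AREB3) and ABI5 are best known from seeds. The DPBF name comes from sunflower factors that bind the promoter of the carrot gene Dc3.

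The tested roots came from 1-month-old seedlings of the cultivar jinba given 100 mM salt water (salt), and the others from seedlings given purified water (control). There were 3 libraries per group, described as biological replicates, and roots were taken 24 h after treatment. The labels name neither the kind of salt nor the number of plants behind a library. They mention 2 days of controlled watering without saying whether both groups had it. The labels name no mutant or transgene.

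Depth, in mega-fragments (M), was 14.5 ± 1.68 M in salt and 17.4 ± 2.35 M in control (SD, n = 3). Clusters whose best matches in both protein databases are plants took 83.5% ± 2.69 of the table's counts in salt and 91.3% ± 0.0651 in control (SD, n = 3), and the part of this difference in the results was not tested. All 9 members are plant-matched. Results are given under a scaling to all clusters and, where it changes the reading, under a scaling to plant-matched clusters. Of 27 clusters named for root identity regulators (SCARECROW, SHORT-ROOT, SOMBRERO, BEARSKIN2 and WOX5), the summed level was 41.4 to 43.6 CPM (counts scaled to the effective library size) in salt and 76.3 to 81.6 CPM in control. BEARSKIN2, a root cap factor, was at or near 0 in salt (0 to 0.142 CPM), against 0.762 to 1.47 CPM in control. Its 2 clusters did not pass the filter on low counts and were not tested. WOX5 had 2.19 to 3.69 CPM in salt and 2.99 to 3.99 CPM in control, and was not called. Under the scaling to all clusters 5 of the 16 tested root identity clusters fell, beside 29.3% of all tested clusters and 35.7% of the plant-matched ones, and their median log2 difference was -0.78. Among the 5, Cluster-119085.1 (SCARECROW) had 0, 0 and 0.132 CPM in salt and passed the filter on low counts through control alone. Its call is no support for a difference. Under the plant-matched scaling edgeR called 0 of 15, with 1 lower and 1 higher at an unadjusted p under 0.05, and the median was -0.19. DESeq2 was run with its own size factors, not the plant-matched scaling, and without edgeR's filter on low counts. It called 6 root identity clusters lower, beside 1465 of all 9595 clusters it tested, so the 6 are not out of the 15. The part of the root identity clusters in the results was not tested. In bulk roots, fewer cells of a type and less RNA per cell cannot be told apart.

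The members are described here by length, coding span and match score. Cluster-71316.131667 and Cluster-71316.175927 (ABF1) are 1573 and 1546 bases long, and each carries a coding span of 385 codons with 288 bases after it and the same match scores (553 in Swiss-Prot, 804 in NR). Cluster-71316.223005 (ABF1) and Cluster-71316.130369 (ABF2) carry 354 and 353 codons, which run through to within 2 bases of the cluster's end. These 4 clusters and the short Cluster-71316.175929 share 1 best NR match, a leucine zipper factor of the dandelion Taraxacum brevicorniculatum. The division into ABF1 and ABF2 is thin there, since Cluster-71316.223005 and Cluster-71316.130369 have an equal NR score of 976 and Swiss-Prot scores of 487 and 502. Cluster-71316.164777 (378 codons) and Cluster-71316.164779 (303 codons), both ABF2, match an ABRE-binding factor of tobacco and an unnamed coffee protein. The DPBF3 clusters Cluster-71316.129165 and Cluster-71316.205882 (224 and 222 codons) both match Dc3 promoter-binding factor-3 of sunflower. The authors gave all 9 the KEGG term ABF, which 14 further clusters carry, all of them matched to G-box-binding factor 4.

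By the main test 8 of 9 members fell in salt and the other, an ABF1 cluster, did not pass. The summed level of the 9 was 35.5, 36.9 and 38.1 CPM in the salt libraries, against 92.9, 97.7 and 94.96 CPM in the control libraries. Under the scaling to all clusters, every salt library lay below every control library for each of the 9 clusters. Over all tested clusters the same held for 39.6%. With plant-matched scaling the groups overlap for DPBF3 Cluster-71316.205882 and ABF1 Cluster-71316.175927. All 9 passed the filter on low counts, one of them (Cluster-71316.175929) through its control libraries alone. By edgeR's quasi-likelihood test with Benjamini-Hochberg adjustment over 5284 clusters, 8 members were called lower at an adjusted p under 0.05, against 29.3% of all tested clusters and 35.7% of the plant-matched ones. With a log2 difference of at least 1 required as well, 6 members were called lower, against 22.3% of all tested clusters. Without Cluster-71316.175929, which had to be lower once it had passed, these counts are 7 and 5 of 8, and the median log2 difference of the 8 is -1.57. By limma on the FPKM of all clusters 8 members were called lower, against 28.4% of 184306 clusters. Cluster-71316.175929 is among these 8 and reached 1 FPKM in its control libraries alone, so its call there is no support for a difference. The count of members called higher was 0 by edgeR, also at an unadjusted p under 0.05, and 0 by DESeq2 and by limma, against 23.9% of all tested clusters called higher by edgeR. The members' median log2 difference (salt minus control) was -1.68, beside -0.36 over all tested clusters and -0.63 over plant-matched ones. The members were 0.0867% of the table's counts on average in salt and 0.209% in control.

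**Figure D1:**
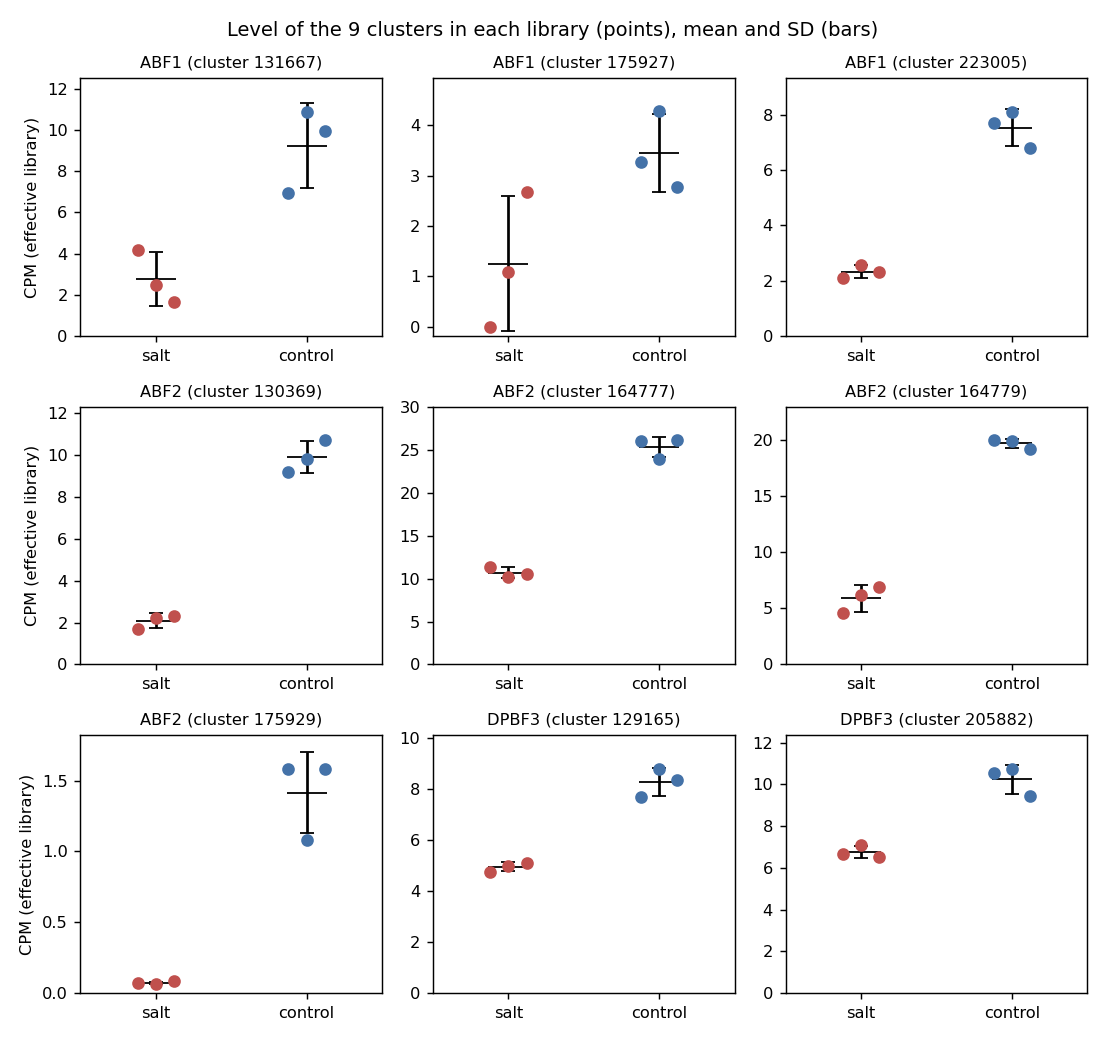
CPM of effective library size for each of the 9 clusters, with salt left and control right; points are libraries, horizontal marks the mean and bars the SD of 3 libraries (for ABF1 Cluster-71316.175927 the bar reaches below 0). In each panel the salt points lie below the control points, narrowly so for that cluster, whose salt 3 value of 2.68 CPM stands beside 2.77 CPM in control 3.

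By mean CPM over all 6 libraries the most abundant members were 2 ABF2 clusters, and both fell. CPM is not scaled to cluster length, and the order in FPKM, given below, differs. In salt alone, DPBF3 Cluster-71316.205882 had 6.75 ± 0.296 CPM, beside 5.88 ± 1.20 CPM for ABF2 Cluster-71316.164779 (SD, n = 3). Cluster-71316.164777 had 11.4, 10.2 and 10.6 CPM in salt and 26.0, 24.0 and 26.1 CPM in control. Its log2 difference was -1.24 (SE 0.09, adjusted p = 0.00021 by edgeR). The groups are far apart and the libraries within each are close together. Cluster-71316.164779 had 4.55, 6.20 and 6.89 CPM in salt and 19.96, 19.95 and 19.2 CPM in control, with a log2 difference of -1.75 (SE 0.17, adjusted p = 0.00045 by edgeR). Here salt 1 is the lowest library and the control libraries nearly coincide. The deposited counts of these clusters are fractional in every library, yet their sum is whole within 0.015 in 6 of 6 libraries (225, 252 and 215 in salt; 784, 892 and 774 in control). How the authors' counting divided reads between them is not given in the labels. Summed, the pair had 16.6 ± 0.775 CPM in salt and 45.1 ± 1.04 CPM in control, so control was 2.72-fold higher than salt (SD, n = 3).

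ABF1 was lower in salt in the long pair of clusters with equal annotation, of which one passed the test alone and the other did not. Cluster-71316.175927 had 0, 1.09 and 2.68 CPM in salt, against 3.28, 4.29 and 2.77 CPM in control, and its log2 difference of -1.46 did not pass (SE 1.02, adjusted p = 0.27 by edgeR). Cluster-71316.131667 had 4.19, 2.48 and 1.63 CPM in salt and 6.92, 10.9 and 9.94 CPM in control, and fell by 1.74 log2 units (SE 0.37, adjusted p = 0.0078 by edgeR). Among the salt libraries, salt 1 is highest in Cluster-71316.131667 and at 0 in Cluster-71316.175927. In salt, Cluster-71316.175927 held 0%, 30.5% and 62.2% of the pair's counts, against 32.2%, 28.3% and 21.8% in control. Added together the pair had 4.19, 3.57 and 4.31 CPM in salt and 10.2, 15.2 and 12.7 CPM in control. The salt libraries now lie close together and below all control libraries. When the pair was summed before the fit, its log2 difference was -1.66 (SE 0.19, adjusted p = 0.00086 by edgeR). Leaving out 1 library at a time, the log2 difference of Cluster-71316.175927 alone ran between -2.60 without salt 3 and -0.87 without salt 1, and it was not called in any of its 18 alternatives.

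**Figure D2:**
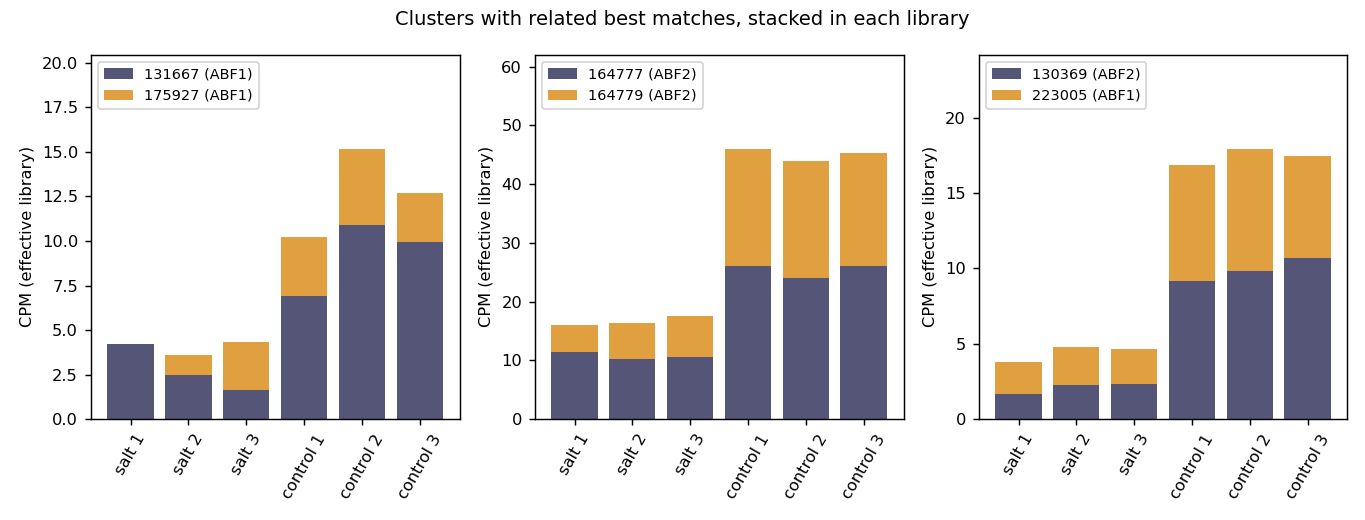
CPM of 3 pairs of clusters stacked in each library, salt libraries left of control libraries. In the ABF1 pair the split between the clusters changes from 0% to 62.2% across salt libraries, while the height of the stack stays between 3.57 and 4.31 CPM in salt.

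Cluster-71316.130369 (ABF2) and Cluster-71316.223005 (ABF1) have nearly the same coding length, and both fell. The first had 1.69, 2.24 and 2.33 CPM in salt and 9.18, 9.81 and 10.7 CPM in control, a log2 difference of -2.24 (SE 0.19, adjusted p = 0.00030 by edgeR). The second had 2.11, 2.56 and 2.33 CPM in salt and 7.70, 8.10 and 6.78 CPM in control, a log2 difference of -1.68 (SE 0.18, adjusted p = 0.00068 by edgeR). The ratio of the first to the second was 0.799, 0.875 and 1.00 in salt and 1.19, 1.21 and 1.58 in control. The ABF2-named cluster was above the other in every control library, and level with it or below it in the salt libraries. Summed before the fit, this pair fell by 1.98 log2 units (SE 0.14, adjusted p = 0.00015 by edgeR).

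The short ABF2 Cluster-71316.175929, whose coding span of 61 codons is followed by 484 bases, was lower in salt. It was counted 1 time in each salt library (3 counts in all) and 27, 22 and 27 times in control. That is a salt level of 0.0514 times the control level, with an exact 95% interval of 0.0104 to 0.156 that covers counting error only. None of its salt libraries reached the cutoff of the filter on low counts, which all 3 control libraries did, so its call is no support for a difference and its fitted log2 difference of -4.16 depends on the prior count. Its counts are whole in 6 of 6 libraries.

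The DPBF3 clusters were called lower too, with the log2 differences nearest 0 of the members. Their values lie near the median of tested plant-matched clusters, which was -0.63 under the scaling to all clusters and -0.12 with plant-matched scaling. Cluster-71316.129165 had 4.76, 5.001 and 5.12 CPM in salt and 7.72, 8.80 and 8.38 CPM in control, a log2 difference of -0.75 (SE 0.14, adjusted p = 0.0051 by edgeR). Cluster-71316.205882 had 6.68, 7.08 and 6.50 CPM in salt and 10.6, 10.7 and 9.44 CPM in control, a log2 difference of -0.60 (SE 0.13, adjusted p = 0.0079 by edgeR). Under the scaling to all clusters the groups do not overlap in either cluster, but with plant-matched scaling those of Cluster-71316.205882 do. Both calls rest on the scaling: with plant-matched scaling the log2 differences were -0.25 (SE 0.14, adjusted p = 0.19 by edgeR) and -0.11 (SE 0.13, adjusted p = 0.52 by edgeR).

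Ratios of counts within a library do not depend on any scaling between libraries. The summed DPBF3 counts over the summed ABF1 and ABF2 counts were 0.476, 0.487 and 0.438 in salt and 0.245, 0.250 and 0.231 in control, with means of 0.467 ± 0.0255 in salt and 0.242 ± 0.00989 in control (SD, n = 3, no test). Between single clusters, DPBF3 Cluster-71316.205882 over ABF2 Cluster-71316.164777 was 0.632 ± 0.0579 in salt and 0.405 ± 0.0432 in control (SD, n = 3). These groups do not overlap either. ABF2 Cluster-71316.164779 over Cluster-71316.164777 was 0.399, 0.610 and 0.652 in salt and 0.767, 0.831 and 0.736 in control. The counts of both are fractional and sum to whole numbers. How reads were divided between them can enter this ratio and that of Cluster-71316.205882 over Cluster-71316.164777, and was not tested. Between the DPBF3 clusters, Cluster-71316.205882 over Cluster-71316.129165 was 1.36 ± 0.0808 in salt and 1.24 ± 0.122 in control, and these values overlap. Of 4 ratios of single clusters tested, 3 had p = 0.1 by an exact permutation test, two-sided, with n = 3 per group, which is the smallest p the design allows (0.13 after Benjamini-Hochberg adjustment). The ratio between the DPBF3 clusters had p = 0.2 by the same exact test (0.2 adjusted).

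**Figure D3:**
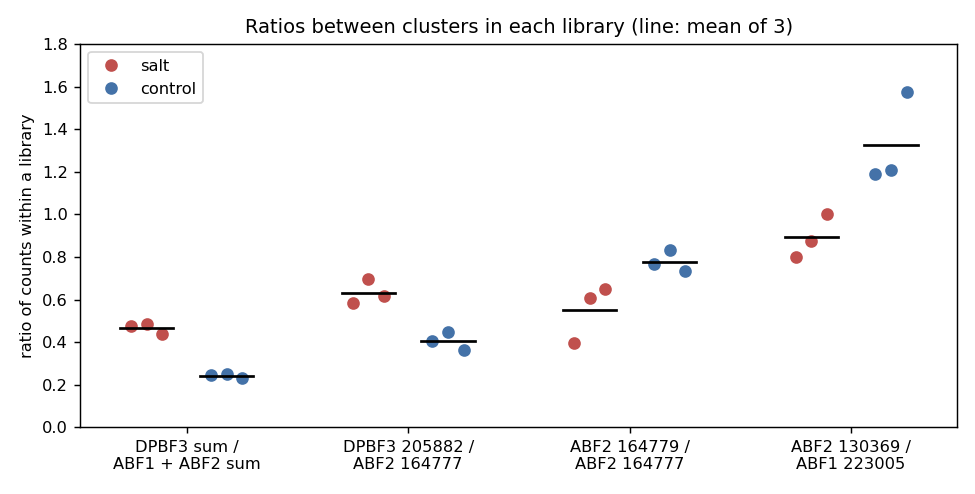
Ratios of deposited counts within each library, salt left of control in each pair; lines are means of 3 libraries. DPBF3 over ABF is higher in salt in all libraries, and both ratios at the right, between ABF clusters, are lower in salt in all libraries.

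Per length, the order of the clusters differed between the groups. In the deposited FPKM, fragment counts scaled to cluster length and library depth, DPBF3 Cluster-71316.205882 was highest in salt with 15.1 ± 0.536, followed by DPBF3 Cluster-71316.129165 (8.24 ± 0.300), ABF2 Cluster-71316.164777 (8.05 ± 0.499) and ABF2 Cluster-71316.164779 (7.39 ± 1.51), whose values overlap. In control ABF2 Cluster-71316.164779 was highest with 27.0 ± 0.651 FPKM, then DPBF3 Cluster-71316.205882 with 24.9 ± 1.16, ABF2 Cluster-71316.164777 with 20.8 ± 1.63 and DPBF3 Cluster-71316.129165 with 15.0 ± 0.799 (SD, n = 3). Lowest in salt were ABF1 Cluster-71316.175927 with 0.927 ± 0.996 FPKM and ABF2 Cluster-71316.175929 with 0.16 ± 0.02 FPKM, against 2.75 ± 0.522 and 3.47 ± 0.806 FPKM in control (SD, n = 3). Above them in salt stood Cluster-71316.223005, Cluster-71316.130369 and Cluster-71316.131667, with means of 2.71, 2.43 and 1.99 FPKM that do not differ beyond their spread. The same clusters averaged 9.50, 12.6 and 7.23 FPKM in control. The DPBF3 clusters made up 49.7% ± 1.88 of the summed FPKM of the 9 in salt and 32.4% ± 0.983 in control, the ABF2 clusters 38.3% ± 1.87 in salt and 51.8% ± 2.29 in control, and the ABF1 clusters 11.97% ± 0.281 in salt and 15.8% ± 1.56 in control (SD, n = 3).

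How far the members fell depends on the scaling, because it moves all clusters together. Against the scaling to all clusters, the centre (median) of all tested values shifted by 0.54 under plant-matched scaling. DESeq2 size factors shifted it by 0.30, column sums by 0.10 and depth alone by -0.14. Higher calls were 44.9% of all calls under the main scaling (1261 higher, 1549 lower), 67.2% with plant-matched scaling (1763 higher, 862 lower) and 57.2% with DESeq2 size factors. Under plant-matched scaling 6 of 9 members were called lower, against 16.4% of all tested clusters and 20.2% of plant-matched ones. Without Cluster-71316.175929 the count is 5 of 8. The 6 were the ABF2 clusters and the ABF1 clusters Cluster-71316.131667 and Cluster-71316.223005, with log2 differences between -3.70 and -0.76. ABF1 Cluster-71316.131667 fell by 1.26 log2 units there (SE 0.35, adjusted p = 0.023 by edgeR). Measured from the median of all tested clusters, the median of the members was -1.32 under the main scaling, -1.37 with plant-matched scaling, -1.33 with DESeq2 size factors and -1.31 with column sums. The distance was smaller from plant-matched clusters, which all members are. When plant-matched clusters alone were fitted, the median of the members was -1.07 from theirs.

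**Figure D4:**
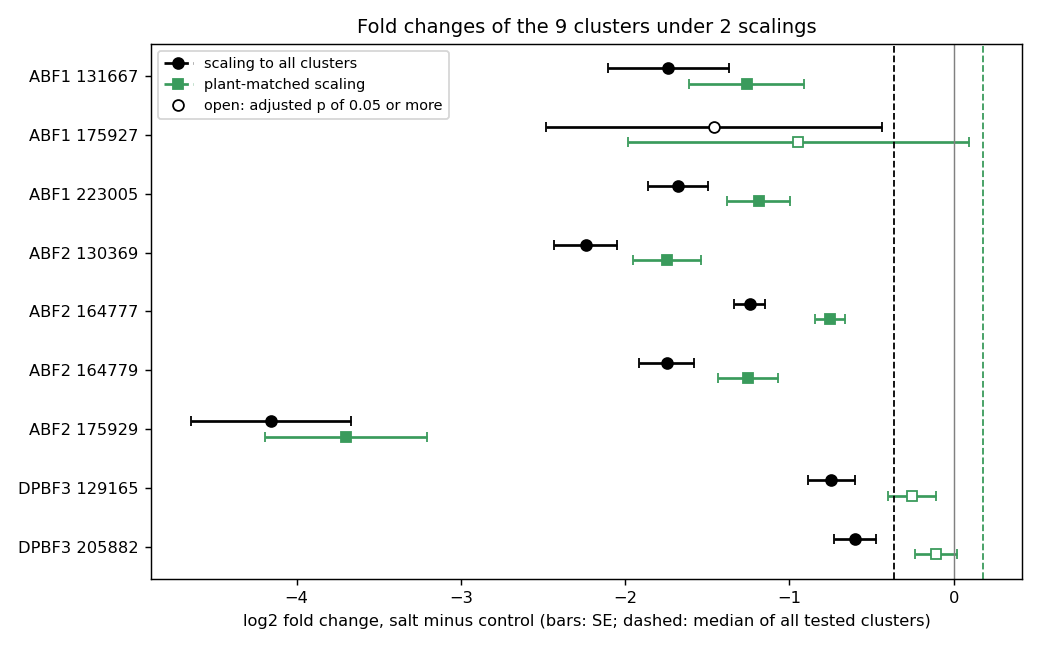
Log2 fold change, salt minus control, of the 9 clusters with SE from the fit, under the scaling to all clusters (black) and the plant-matched scaling (green); open symbols did not pass an adjusted p of 0.05 and dashed lines mark the median of all tested clusters, -0.36 and 0.18. The 9 values lie left of the dashed line of their own scaling under both, and both DPBF3 clusters turn open under the plant-matched one.

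The authors' deposited table calls 6 members DOWN, 0 UP and 3 neither. It calls 10.2% of all its 10744 clusters DOWN, counting those too low for the filter here, which 5284 passed, all 9 members among them. Its log2 ratio of salt over control was negative for all 9. The members it does not call are the DPBF3 clusters, with log2 ratios of -0.68 and -0.53 and q values of 0.014 and 0.036 in the authors' deposited table, and ABF1 Cluster-71316.175927 (-1.35, q = 0.45). No cluster called in that table had an absolute log2 ratio under 1.0012, and both DPBF3 log2 ratios lie nearer 0 than that.

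Other bZIP clusters stood beside the members as follows. Of 18 tested clusters of TGA factors, which act in salicylic acid and stress responses, 15 fell, with a median log2 difference of -1.45. Under plant-matched scaling 9 of these 18 fell, with a median of -0.96. Of 118 tested plant-matched bZIP clusters that are neither members nor TGA factors, 12 rose and 39 fell, and their median was -0.41. Under plant-matched scaling 26 of 117 rose and 13 fell, and the median was 0.07. Among all 145 tested plant-matched bZIP clusters, the members took places 2, 11, 19, 20, 23, 31, 38, 61 and 72 from the lowest log2 difference. Place 2 is that of Cluster-71316.175929, which passed the filter on low counts through control alone, so that place is no support for a difference. Whether the members differ from the TGA factors was not tested.

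Among regulators of the ABA pathway outside the members, more clusters fell than rose under the scaling to all clusters. So did plant-matched clusters at large. Of the 19 regulators that rose, 16 are matched to MYB44. The list held names of receptors, phosphatases, kinases and transcription factors, and only phosphatases and transcription factors were matched. It matched 204 clusters, of which 117 were tested, 19 rose and 36 fell. Some of the 36 lay below the cutoff of the filter on low counts (0.616 CPM) in every salt library, and some of the 19 in every control library. Such calls are no support for a difference. All but 1 of the 204 are plant-matched, and among the 3807 tested plant-matched clusters 456 were called higher and 35.7% lower, beside 23.9% higher and 29.3% lower over all tested clusters. Leaving out the 91 clusters matched to MYB44, 3 of 69 rose, 27 fell and the median was -0.59. With plant-matched scaling 29 of 116 rose and 13 fell, against 21.7% and 20.2% of plant-matched clusters (33.5% and 16.4% of all tested clusters), and without MYB44 9 of 69 rose and 10 fell. The median of the whole list was 0.12 there, and -0.37 under the scaling to all clusters. Names without a match in the regulator table, such as the ABA receptors and SnRK2 kinases, were not analysed here. Of 9 tested clusters of protein phosphatases 2C, 4 fell, among them 2 of 4 matched to KAPP, and with plant-matched scaling 2 of 9 fell, 1 of them matched to KAPP. The matches are protein phosphatases 2C 22, 27 and 70 (KAPP), and their part in ABA signalling was not tested. Under the scaling to all clusters, Cluster-71316.108976 (KAPP) and Cluster-71316.40697 lay below the filter's cutoff of 0.616 CPM in every salt library. They are the 2 called under both scalings, and these calls are no support for a difference.

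DREB2A, an activator of dehydration-responsive genes that ABF factors are known to induce in Arabidopsis, fell in salt. All 4 tested of its 6 clusters fell under both scalings. The most abundant, Cluster-71316.173520, had 12.8 ± 1.11 CPM in salt and 37.0 ± 2.39 CPM in control, a log2 difference of -1.53 (SE 0.10, adjusted p = 0.00013 by edgeR) and of -1.04 with plant-matched scaling (adjusted p = 0.00057 by edgeR). Of 20 tested clusters of G-box-binding factors, bZIP proteins that bind the core of the ABA-responsive element, 7 fell and 13 did not pass, and 1 fell with plant-matched scaling. That one is the only GBF3 cluster, Cluster-71316.75513, at 0.237 ± 0.0915 CPM in salt and 1.33 ± 0.0272 CPM in control (SD, n = 3). With 2, 5 and 3 counts in the salt libraries it, too, passed the filter through control alone, so its call is no support for a difference. The same holds for Cluster-71316.141381 (GBF4) and Cluster-71316.201287 (GBF1), which are among the 7 under the scaling to all clusters. ZAT10, a zinc finger repressor of stress responses, had 8 of 9 tested clusters lower, and 3 of 9 with plant-matched scaling. Its most abundant cluster, Cluster-71316.164846, had 132 ± 12.6 CPM in salt and 190 ± 5.28 CPM in control (log2 difference -0.53, adjusted p = 0.0021 by edgeR), but its log2 difference was -0.04 with plant-matched scaling (adjusted p = 0.59 by edgeR). Of the next ZAT10 clusters, Cluster-71316.158143 fell under both scalings (log2 differences -0.86 and -0.37), and Cluster-71316.141878 under the scaling to all clusters alone (-0.81 and -0.31).

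Other ABA-linked factors moved in both directions or did not pass. NAC072 (RD26), a NAC factor induced by ABA and drought in Arabidopsis, had 2 of 6 clusters higher under both scalings. The most abundant, Cluster-71316.172221, had 65.6 ± 6.12 CPM in salt and 49.8 ± 1.04 CPM in control, a log2 difference of 0.40 (SE 0.08, adjusted p = 0.0074 by edgeR), and Cluster-71316.198473 had 10.8 ± 1.16 CPM in salt and 4.95 ± 0.193 CPM in control. NAC002 (ATAF1) had 1 of 4 tested clusters lower, Cluster-71316.150827 (log2 difference -0.34, adjusted p = 0.016 by edgeR), which was at 0.15 with plant-matched scaling (adjusted p = 0.14 by edgeR). ATHB-7, a homeodomain factor used as a marker of ABA and drought responses, had 35.8 ± 6.89 CPM in salt and 43.4 ± 0.753 CPM in control and did not pass (log2 difference -0.28, SE 0.14, adjusted p = 0.13 by edgeR). ATHB-5 and ATHB-6, homeodomain factors also on the list, were called lower under the scaling to all clusters (1 tested cluster each). Their log2 differences were -1.01 and -1.61 (adjusted p = 0.043 and 0.033 by edgeR), and neither was called with plant-matched scaling. Of 48 tested clusters matched to MYB44, a MYB factor of ABA and stress responses, 16 rose and 9 fell (20 and 3 of 47 with plant-matched scaling), and the most abundant of those called, Cluster-71316.153185, rose by a log2 difference of 0.36 (adjusted p = 0.014 by edgeR). The most abundant of all, Cluster-71316.148632, did not pass (log2 difference 0.18, adjusted p = 0.054 by edgeR). Among the MYB44 clusters that fell, Cluster-71316.135207, Cluster-71316.218056, Cluster-71316.273510 and Cluster-71316.33226 passed the filter on low counts through control alone. Among those that rose, Cluster-71316.289723 and Cluster-97439.0 passed it through salt alone. These calls are no support for a difference. WRKY40, a repressor of ABA responses in Arabidopsis that is reported to act on ABI5, had 1 of 5 tested clusters higher, the abundant Cluster-71316.180529 with a log2 difference of 0.78 (SE 0.07, adjusted p = 0.00037 by edgeR). MYC2, a bHLH factor of jasmonate and ABA responses, changed direction with the scaling. Its 1 cluster (Cluster-71316.124004) was called lower under the scaling to all clusters (log2 difference -0.24, adjusted p = 0.023 by edgeR) and higher under the plant-matched one (0.25, adjusted p = 0.019 by edgeR).

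ARIA, which carries armadillo repeats and is known to bind ABF2 in Arabidopsis, was added to the description after its values had been seen. Of 8 tested ARIA clusters 4 fell, and 3 with plant-matched scaling. Cluster-71316.177937, called under both scalings, had 0, 0.391 and 0 CPM in the salt libraries and passed the filter through control alone. Its call is no support for a difference. The abundant Cluster-71316.167038 had 77.6 ± 7.33 CPM in salt and 191 ± 2.47 CPM in control, a log2 difference of -1.30 (SE 0.08, adjusted p = 0.00010 by edgeR). With plant-matched scaling it fell by 0.81 log2 units (adjusted p = 0.00080 by edgeR). One ARIA cluster, Cluster-71316.168844, went the other way with plant-matched scaling alone (log2 difference 2.04, adjusted p = 0.033 by edgeR), and had 7.77 ± 5.10 CPM in salt and 2.65 ± 0.754 CPM in control (SD, n = 3).

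**Figure D5:**
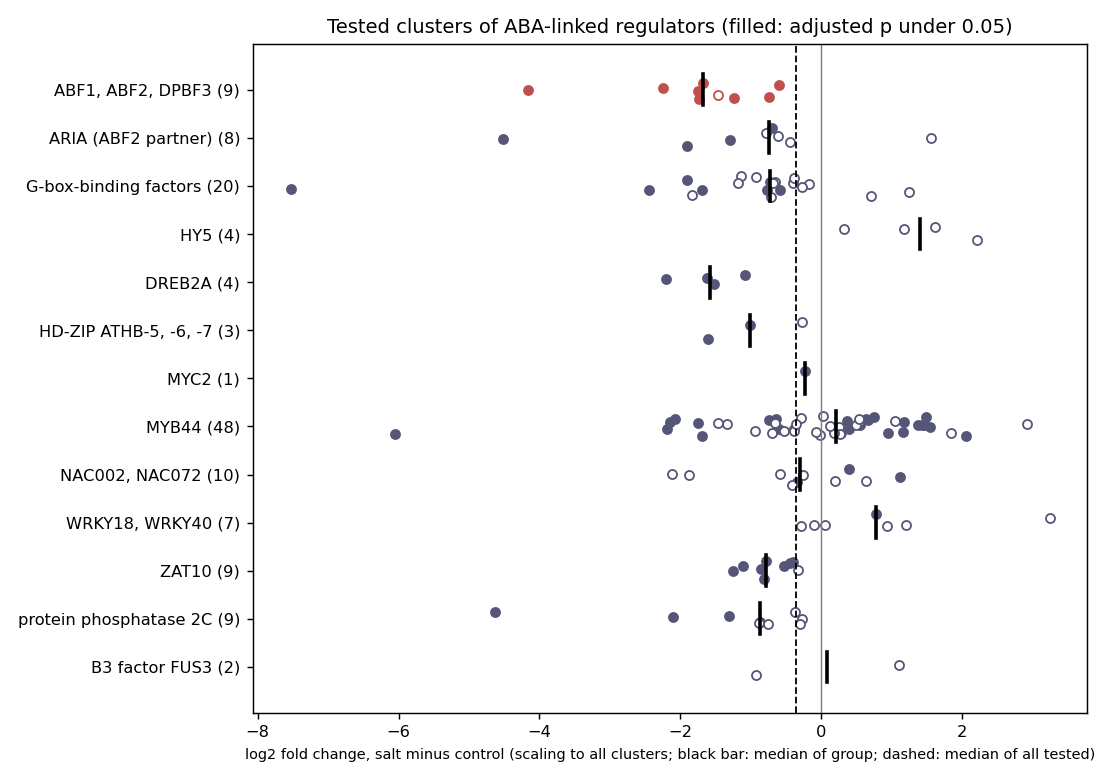
Log2 fold change, salt minus control, of every tested cluster of the members and of other ABA-linked regulators under the scaling to all clusters, with the number of clusters in brackets; filled points passed an adjusted p of 0.05, black bars are group medians and the dashed line is the median of all tested clusters (-0.36). The members, ARIA, DREB2A and ZAT10 lie mostly left of 0, MYB44 on both sides; fitted values beyond -4 depend on the prior count.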

How the data were processed

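Per the labels, total RNA of 6 root libraries (3 salt, 3 control) was prepared with an Illumina TruSeq kit. Bowtie2 2.0.6 and TopHat2 2.0.12 are listed in the submitters' processing notes, with no role, and no source used here names the assembler or counter. The authors deposited expected counts (49.3% more than 0.005 from a whole number) and FPKM for 10744 regulator clusters, with match scores, their log2 ratio and q value, and FPKM alone for 469059 clusters. Cluster length is a further deposited column, in bases, and count over FPKM fits a length shorter by a median of 240.3 bases. Because the table covers part of a library, depth was taken as the slope of count over FPKM on length (clusters of at least 200 counts and 500 bases).

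Counts were rounded and tested with edgeR 4.0.16 (R 4.3.3; quasi-likelihood F-test, filterByExpr), salt minus control, with depth times TMM factors of all clusters' FPKM as library size. The SE is the one implied by the F statistic. The plant-matched scaling takes TMM factors from 6539 clusters with a seed plant match in NR and a land plant match in Swiss-Prot. Alternatives used limma 3.58.1 on log2(FPKM + 1) or log2(FPKM + 0.1) for clusters with at least 1 FPKM in 3 libraries, and DESeq2 1.42.0. Adjusted p-values are Benjamini-Hochberg over all tested clusters, called under 0.05. The edgeR and limma steps were tested on simulated data. Values in every library were given for the most abundant member of each name, for up to 6 called members in each direction by size of change, and for abundant uncalled ones, which came to 8 of the 9, and Cluster-71316.129165 was added. From the ABA list, the 3 most abundant called clusters in each direction were named, with names moving both ways. Clusters of DREB2A, GBF3, ATHB-5, ATHB-6, ATHB-7, MYC2 and ARIA and the uncalled MYB44 cluster, outside that rule, were named after their values were seen. The members and lists were chosen with earlier results of these data known.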

Additional observations from a re-analysis of the deposited data

How the results depend on the processing

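The direction of all 9 clusters was the same in every alternative that gave a value, 18 or 19 for each cluster. The members called lower numbered 8 under the main scaling and without any 1 library, 7 with DESeq2 size factors and with the DESeq2 Wald test, 7 of 8 without Cluster-71316.175929, and 6 with plant-matched scaling or clusters, and the members called higher 0 by edgeR, DESeq2 and limma. Calls of both DPBF3 clusters were lost with plant-matched scaling, and that of Cluster-71316.205882 also with DESeq2 size factors (adjusted p = 0.074) and the DESeq2 Wald test (0.081). The median log2 fold change of the members, -1.68, was -1.40 with DESeq2 size factors and with the DESeq2 Wald test, -1.19 with plant-matched scaling and with plant-matched clusters alone, -1.49 with limma on log2(FPKM + 1) with or without the filter and -1.88 with a pseudocount of 0.1. The ABA list had 29 clusters higher and 13 lower with plant-matched scaling, 13 lower with plant-matched clusters alone and 32 higher with the DESeq2 Wald test, against 19 and 36. Over all tested clusters the DESeq2 Wald test called 2332 higher and 1465 lower. With equal-match pairs summed, 7 of 7 units (5 single members and 2 pairs) were called lower, beside 1548 of all 5282 tested. Cluster-71316.175929 is among the 7, and its call is no support for a difference. Plant-matched clusters alone, summed pairs and the count without Cluster-71316.175929 were chosen after seeing the data. Without 1 library at a time, the ABA list had 14 to 17 higher and 28 to 39 lower, and the members' median was -1.69 to -1.59. Same-numbered libraries did not deviate together (correlations 0.0022 to 0.037), so the numbers do not pair them, and with the replicate block 8 members were called lower with a median of -1.76. Depth limits the low clusters most, since Cluster-71316.175929 rests on 3 counts in salt.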
